A study of Mus musculus with 6 samples.

Results

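The SOX, FOX, GATA, KLF, TBX and RUNX transcription factors were followed in mammary tumour cells given extra miR-16. Members were chosen by name alone: every non-control probe whose gene name on the array is one of these family stems followed by its number (or letter and number). This gave 162 probes for 94 genes, of 41174 probes and 28786 gene names in all, with 36 Fox, 20 Sox, 16 Klf, 13 Tbx, 6 Gata and 3 Runx genes. The study asked which genes change when miR-16 is raised, and used 6 single-colour Agilent mouse arrays, 3 for each of 2 groups. Both groups were primary cultures of C4HD, a progestin-dependent ductal mammary tumour that arose in female BALB/c mice given medroxyprogesterone acetate and is carried by serial transplantation in mice that receive the same progestin. The control group received 30 nM pre-miR-Control, a precursor that yields no known mammalian miRNA, and the other group received 30 nM pre-miR-16, in each case for 48 h with a lipid transfection reagent. Cells came from the epithelial-enriched fraction left after repeated sedimentation of digested tumours and were plated in steroid-stripped serum. The 3 replicates of a group are described as biological, but whether each came from its own tumour was not stated, C4HD is 1 tumour line, and p-values measure only the spread among these cultures. The level of miR-16 itself was not analysed here.

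Each family shares a DNA-binding domain: the HMG box in SOX, the forkhead in FOX, zinc fingers in GATA and KLF, the T-box in TBX and the Runt domain in RUNX proteins. Many set and hold cell identity. In the mammary gland GATA3 and FOXA1 are hallmarks of hormone-responsive luminal cells, SOX9, SOX10 and KLF5 are linked to progenitor and basal cells, and RUNX1 and TBX3 act in the luminal lineage, whereas FOXF, FOXC, TBX15 and TBX5 are best known from mesenchyme. miR-16 lowers its targets through pairing of its seed, bases 2 to 8, with sites that lie mostly in 3′ untranslated regions. The mature sequence of the transfected agent is shown from RefSeq (GRCm38.p6), with the seed in capitals.
mmu-miR-16-5p: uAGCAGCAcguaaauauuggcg
This seed is shared by 10 of 1679 mature mouse miRNAs in that table, among them miR-15a, miR-15b, miR-195a, miR-322 and miR-497a. Its match, TGCTGCT, stood in 0 of the 162 member probes and in 0.544% of all probes on the array; the transcripts' full 3′ ends were not analysed here.

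Of the 94 genes, 55 could be tested, that is, some probe of theirs exceeded background in every replicate of 1 group or the other (58.5%, against 58.0% of all gene names). All 3 Runx, 11 of 16 Klf, 4 of 6 Gata, 21 of 36 Fox, 10 of 20 Sox and 6 of 13 Tbx genes were among them. Of the other 39, 22 had no probe above background on any array, among them the pluripotency factor Sox2, the endothelial factors Sox17 and Sox18, the regulatory T cell factor Foxp3 and the endodermal factors Foxa2 and Foxa3. A further 17 passed on some arrays but not on a whole group, 10 of them on pre-miR-Control replicate 1 alone, the array with the highest share of spots above background (63.99%, against 57.23% to 60.43% on the others). Tbx18, a mesenchymal T-box gene, passed on pre-miR-16 arrays alone, on 2 of 3. Levels are given throughout as log2 signal minus the 75th percentile of the same array, so a negative value marks a probe dimmer than that percentile, and levels of different probes are not compared as amounts of RNA.

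In the plot of levels by array, most members sat at nearly the same height in both groups, and a small set had moved up. After pre-miR-16, 8 members rose and 21 fell, and 26 were not called (limma, Benjamini-Hochberg adjusted p under 0.05 over 16702 genes). Over all genes tested 16% rose and 33.1% fell, 49.1% in all, so the counts among the members lie close to that background: 8 and 21 of 55. The control and treated values of each of the 29 called members did not overlap, and non-overlap was common on these arrays, at 19.0% of all genes upward and 42.4% downward. The median change was 2.83 log2 units for the 8 that rose (2.20 where members with a bound are entered at it, and 0.94 after normexp background correction) and -0.65 for the 21 that fell (-0.53 after normexp). The count of 21 was 13 without pre-miR-Control replicate 2, 13 without pre-miR-16 replicate 1, and 12 with slide as a block.

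**Figure D1:**
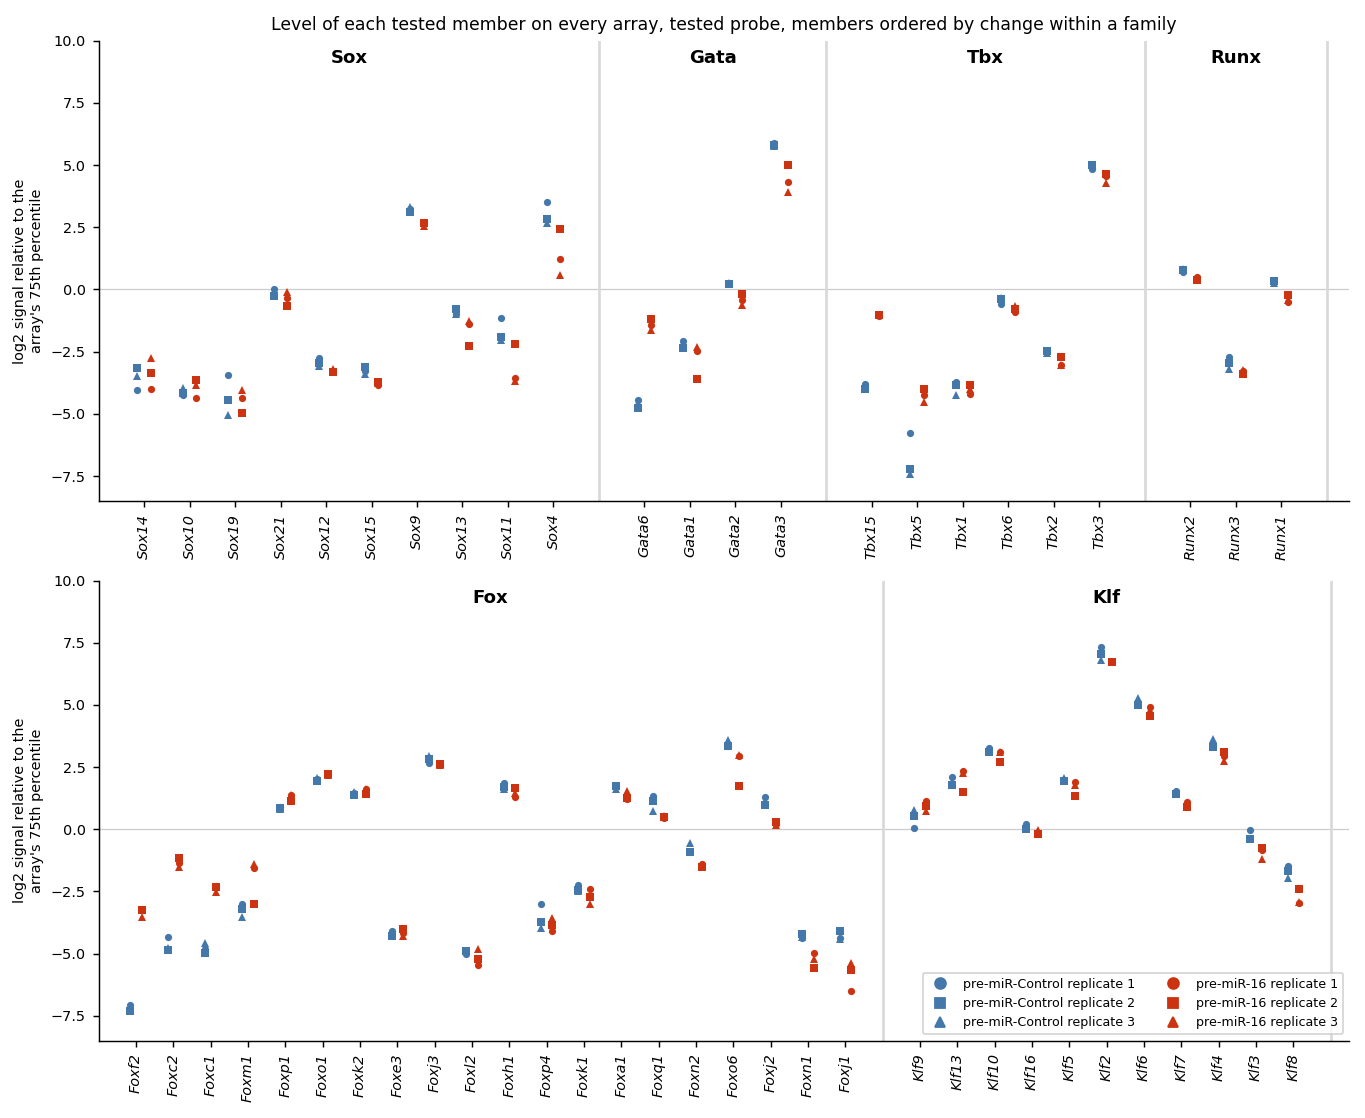
Level of 54 of the 55 tested members on every array, on a log2 axis relative to the array's 75th percentile; blue marks are the 3 pre-miR-Control arrays, red marks the 3 pre-miR-16 arrays, and marker shape gives the replicate number. Foxf2, Foxc2, Foxc1, Gata6, Tbx15 and Tbx5 show a wide gap with red above blue, while most other members lie within 1 log2 unit between the groups.

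How the arrays were scaled decided most of the small declines. The probes of bright spike-in RNAs lay 3.80 to 3.95 above the 75th percentile on control arrays and 3.28 to 3.63 on pre-miR-16 arrays, and centring on them moved every change up by 0.38. On that scale 11 members rose and 4 fell (22.0% and 6.23% of all genes, 28.2% in either direction), all 8 risers stayed called, and Foxm1, Foxo1 and Klf9 joined them. Only Gata3, Klf8, Sox4 and Foxj1 still fell. The other 17 lost their call, and 3 of those (Foxa1 at 0.01, Sox12 and Runx2 at 0.04) turned sign. The members' median change was -0.33 on the percentile scale and 0.05 on the spike-in scale, against -0.20 and 0.18 over all genes. Both scales are therefore given for each group of members below.

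**Figure D2:**
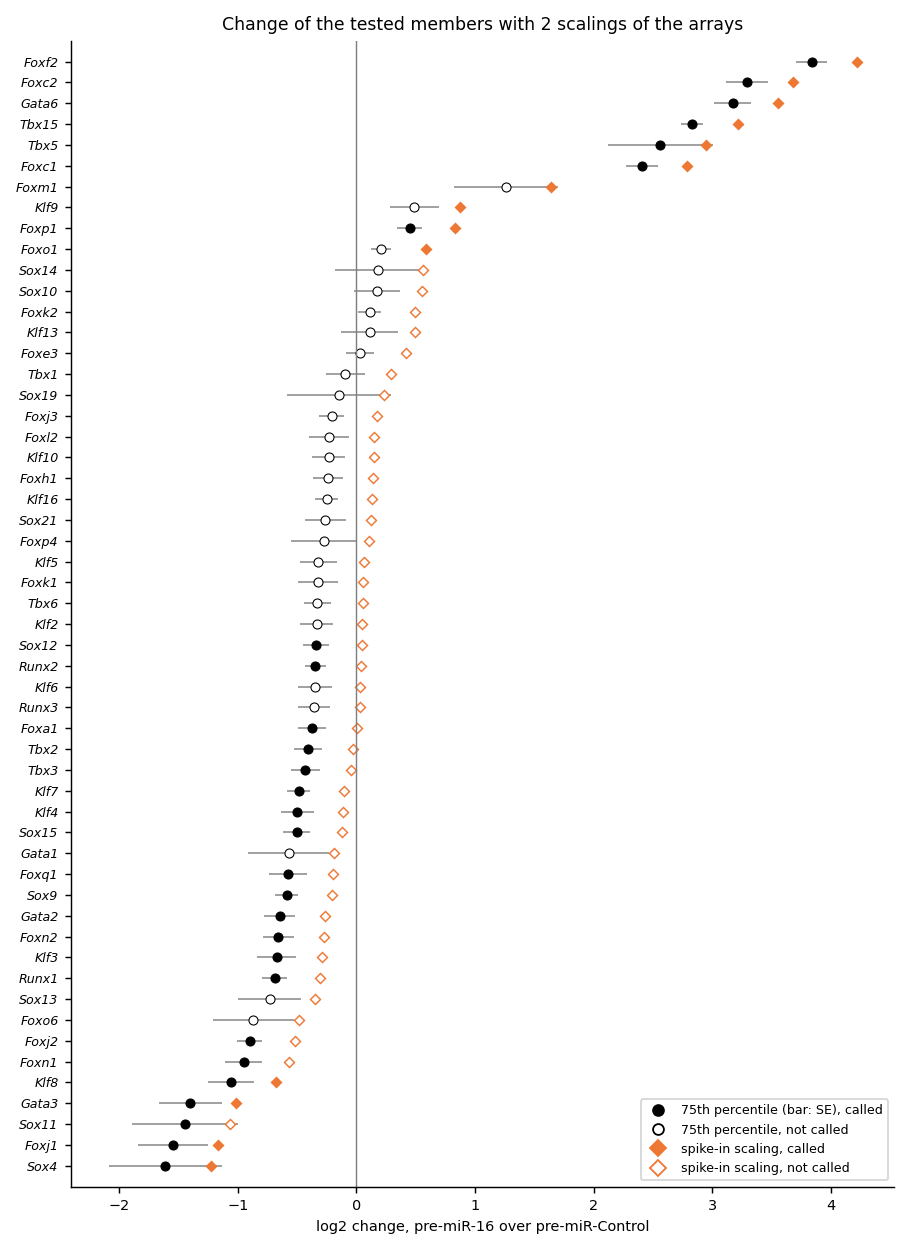
Log2 change of 54 of the 55 tested members, pre-miR-16 over pre-miR-Control, with 75th percentile scaling (circles, bars are the SE) and with spike-in scaling (diamonds); filled marks passed an adjusted p of 0.05. The 6 members at the top rose on both scales, Foxm1 below them was called on the spike-in scale alone, and the long run of small declines moves to or past 0 on the spike-in scale.

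Most tested factors of mesenchyme were higher after pre-miR-16. Of 11 tested genes of a list of 18 mesenchymal factors, 7 rose and 3 fell, where 16% and 33.1% of all genes did. The median change was 2.41, or 1.65 with genes at their bound (2.79 on the spike-in scale, 0.81 after normexp). Foxf2, Foxc2 and Tbx5 passed the filter on dim probes through the treated arrays alone. A tested Foxf2 or Tbx5 thus had to be higher there. For Foxc2, above background on 2 of 3 controls, entry through those arrays favoured a rise. The 7 were Foxf2, Foxc2, Foxc1, Gata6, Tbx15, Tbx5 and Foxs1, the last listed on the array under its old name Fkhl18 and so not a member by name. Sox11, Runx2 and Tbx2 fell on the percentile scale and none of the 3 was called on the spike-in scale, where Runx2 turned sign. The Tbx2 call also ended on leaving out each array in turn except pre-miR-16 replicate 2 (largest adjusted p 0.0957).

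Foxf2, a forkhead factor of gut and palate mesenchyme, rose from below background. Its signal was -7.06, -7.29 and -7.16 on the control arrays and -3.21, -3.25 and -3.54 on the pre-miR-16 arrays. Each treated array lay far above each control, but no control array was above background, so the rise is given as at least 4.01-fold (log2 change 3.84 ± 0.13 SE as measured, limma adjusted p = 1.19e-05). Foxc2, which acts in mesenchyme and lymphatic vessels, had -4.31, -4.84 and -4.79 on controls and -1.37, -1.16 and -1.52 after pre-miR-16. It rose 9.82-fold (3.30 ± 0.18, adjusted p = 4.61e-05), with 2 of 3 control arrays above background. Its relative Foxc1 had -4.81, -4.99 and -4.56 on controls against -2.29, -2.33 and -2.52, a rise of 5.30-fold (2.41 ± 0.14, adjusted p = 5.96e-05). Both genes had all treated arrays above all controls. After normexp correction, which pulls dim signals together, the changes were 0.81 for Foxf2, 1.72 for Foxc2 and 1.08 for Foxc1, all upward.

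Gata6, a factor of heart, gut and smooth muscle, showed -4.43, -4.78 and -4.56 on controls and -1.42, -1.20 and -1.64 after pre-miR-16 at its tested probe. It rose 9.01-fold there (3.17 ± 0.15, adjusted p = 2.95e-05). Another kept Gata6 probe, above background on all controls and 2 treated arrays, went the other way by -0.52 and passed the threshold with every probe fitted (adjusted p = 0.0271), so the rise rests on 1 probe. Tbx15, which patterns skin and limb mesenchyme, had the smallest SE of the 8 that rose. Its signals were -3.80, -3.99 and -3.83 on controls and -1.07, -1.02 and -1.03 after pre-miR-16, a 7.11-fold rise (2.83 ± 0.09, adjusted p = 1.19e-05), and both of its kept probes changed by 2.83. After normexp correction the changes were 1.72 for Gata6 and 1.73 for Tbx15, both still called. Tbx5, a heart and forelimb factor, went from -5.78, -7.23 and -7.42 to -4.23, -3.98 and -4.53. No control array was above background, and the rise is at least 2.12-fold (2.56 ± 0.44, adjusted p = 0.00481). The Tbx5 change shrank to 0.29 and lost its call after normexp correction.

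Markers of stromal cells moved with these factors. Of 10 fibroblast markers 9 rose, where 16% of all genes did, with a median change of 3.81. Their summed level went from between 8.62 and 8.85 on controls to between 9.17 and 9.48. Decorin (Dcn), at -0.07, was the exception. Its mean signal on controls was 8.68, and the next brightest marker, Col1a2, was at 2.80. The summed level on controls was thus almost wholly the Dcn signal. All 10 fibroblast markers were above background on at least 1 control array, Lum on 1 of 3 and Fap on 2 of 3. Lum and Fap thus passed the filter on dim probes through the treated arrays alone. Of 11 macrophage and leukocyte markers 10 rose, with a median of 4.78. Their summed level went from between 4.01 and 4.45 to between 7.74 and 8.03, and Csf1r was not called (-0.51). The pan-leukocyte marker Ptprc, Itgam, Adgre1, C1qa, C1qc and Tyrobp passed the filter on dim probes through the treated arrays alone, which favoured a rise. Among these, Ptprc was above background on no control, Itgam on 1 of 3 and the others on 2 of 3. Of 6 basal and myoepithelial markers 5 were tested, 3 of which rose (Acta2, Cnn1 and Myh11) and 1 fell (Krt14). Myh11, above background on 2 of 3 controls, also passed the filter through the treated arrays alone. Of 6 endothelial markers only Esam was tested (-0.24), and of 4 T cell markers only Cd3e (-0.08), neither called. The part of these cells in the rise of Foxf2, Foxc1, Foxc2, Gata6, Tbx15 and Tbx5 was not tested. In bulk RNA of this kind, more or fewer cells of a type and more or less RNA per cell cannot be told apart.

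Several reported matrix targets of RUNX2 and SOX9 rose while neither factor did. Of 7 tested, 4 rose, where 16% of all genes did: Spp1 by 3.67, Mmp13 by 4.65, Col2a1 by 2.25 and Bglap by 3.99 log2 units as measured. Mmp13 was above background on 1 of 3 controls and Bglap on none. Both passed the filter on dim probes through the treated arrays alone. Col11a2 fell by 0.74 on the percentile scale and was not called on the spike-in scale. Runx2, a bone and cartilage regulator also found in mammary tumours, read 0.69, 0.80 and 0.83 on controls and 0.49, 0.40 and 0.39 after pre-miR-16. That small decline (-0.35 ± 0.09, adjusted p = 0.0191) became 0.04 with spike-in scaling, and its call ended without pre-miR-Control replicate 2 or 3 or pre-miR-16 replicate 3 (largest adjusted p 0.0767). Its kept probes changed by -0.35 each. Sox9 had 3 kept probes, all lower, between -0.93 and -0.59. The tested one read 3.24, 3.13 and 3.33 on controls and 2.69, 2.68 and 2.54 after pre-miR-16 (-0.59 ± 0.10, adjusted p = 0.00427), and on the spike-in scale it was not called at -0.21.

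Luminal and epithelial factors fell on the percentile scale in 9 of 10 cases, where 33.1% of all genes did. The list has 11 genes; of the 10 tested only Klf5 was not called, with a median change of -0.62 against -0.20 over all genes. On the spike-in scale 3 still fell (Gata3, Sox4 and Foxj1), as did 6.23% of all genes, and the median was -0.24 against 0.18. All 10 had every treated array below every control, as did 42.4% of all genes. Foxj1 was above background on no treated array and Foxn1 on 1 of 3. Both passed the filter on dim probes through the control arrays alone, which favoured a fall. All 8 luminal epithelium markers, keratins 8, 18 and 19 among them, also fell on the percentile scale and 2 of the 8 on the spike-in scale. Their summed level was 9.96 to 10.15 on controls and 9.21 to 9.29 after pre-miR-16; all 8 were above background on all 6 arrays, and their part in the decline of the luminal factors was not tested.

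Gata3, the luminal master regulator, was strongly detected on every array. It read 5.89, 5.80 and 5.77 on controls and 4.32, 5.01 and 3.92 after pre-miR-16. The controls were nearly identical and all 3 treated arrays lay lower, pre-miR-16 replicate 2 least so. The decline was 2.64-fold (-1.40 ± 0.27, adjusted p = 0.00689) and stayed called with spike-in scaling (-1.02, adjusted p = 0.0108) and without each array in turn (-1.70 to -1.15, largest adjusted p 0.0276). Sox4, a progenitor factor often raised in carcinomas, read 3.51, 2.85 and 2.69 on controls and 1.22, 2.41 and 0.59 after pre-miR-16. It fell 3.05-fold (-1.61 ± 0.48, adjusted p = 0.0331). Pre-miR-16 replicate 2 again lay nearest the controls: the call held without it (adjusted p = 0.0041) and ended when any other of the 6 arrays was left out (up to 0.0946), with slide as a block and with quantile normalization. Foxj1, the switch for motile cilia, went from -4.38, -4.09 and -4.43 to -6.51, -5.64 and -5.38, where no treated array was above background. Its decline is at least 2.02-fold (-1.55 ± 0.30, adjusted p = 0.00701), and it stayed called with spike-in scaling and, at -0.52, after normexp correction.

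Foxa1, the pioneer factor that opens chromatin for the oestrogen receptor, did not share the size of the Gata3 change. It read 1.76, 1.73 and 1.64 on controls and 1.20, 1.25 and 1.54 after pre-miR-16 (-0.38 ± 0.12, adjusted p = 0.0398). The call ended with spike-in scaling (0.01) and on leaving out each array in turn except pre-miR-16 replicate 3 (largest adjusted p 0.118). Tbx3, a luminal T-box repressor, fell slightly, from 4.83, 5.00 and 4.99 to 4.56, 4.66 and 4.30 (-0.43 ± 0.12, adjusted p = 0.0303), which was -0.05 and not called on the spike-in scale, and its call ended without each of 4 single arrays. Foxn1, the thymus and hair follicle factor, changed by -0.95 and Foxq1, an epithelial forkhead factor, by -0.58. Klf3 changed by -0.67 and Klf4, a factor of epithelial differentiation, by -0.50. All 4 fell on the percentile scale and none was called with spike-in scaling, where they lay between -0.57 and -0.12. The Foxq1 and Klf4 calls also ended without each of 4 single arrays (largest adjusted p 0.0874 and 0.0775): pre-miR-Control replicate 1, pre-miR-16 replicates 1 and 3 and, for Foxq1, pre-miR-Control replicate 2 or, for Klf4, pre-miR-Control replicate 3.

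Genes reported to work with or under GATA3 and FOXA1 were mixed. Of 9 tested, 4 fell, 1 rose and 4 were not called, where 33.1% of all genes fell and 16% rose. Their median was -0.79 (-0.40 on the spike-in scale). Elf5, the alveolar luminal factor, moved most, from -0.55, -0.54 and -0.61 on controls to -5.40, -3.73 and -5.05, with 1 of 3 treated arrays above background. Its decline of 4.16 log2 units (adjusted p = 6.44e-04) held on the spike-in scale (-3.78). Agr2 and Tff1, secreted luminal products, and Pgr, the progesterone receptor, also fell on the percentile scale. On the spike-in scale only Agr2 and Elf5 did. Agr2 was above background on no treated array. Both Agr2 and Elf5 passed the filter on dim probes through the control arrays alone, which favoured a fall. Xbp1, the secretory stress factor, rose by 0.57, and the oestrogen receptor gene Esr1 was not called at -0.09. In Elf5, as in Gata3 and Sox4, pre-miR-16 replicate 2 was the treated array nearest the controls.

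Foxm1, the driver of mitotic gene expression, split the treated arrays. It read -2.99, -3.22 and -3.51 on controls and -1.55, -3.01 and -1.39 after pre-miR-16, so that replicates 1 and 3 lay well above the controls and replicate 2 lay among them. The change of 1.26 ± 0.44 was not called (adjusted p = 0.0536); it was called on the spike-in scale (1.64, adjusted p = 0.0164). Leaving out pre-miR-16 replicate 2 also gave a call (1.77, adjusted p = 0.00103), and leaving out any other array gave an adjusted p between 0.0844 and 0.151. Among 8 reported FOXM1 targets tested, 5 had replicates 1 and 3 above all controls and replicate 2 not. Birc5 (survivin) read 1.34, 1.48 and 1.36 on controls and 3.16, 1.09 and 3.23 after pre-miR-16, and Plk1 read -0.24, -0.05 and -0.44 against 1.17, -0.35 and 1.16. In both genes pre-miR-16 replicate 2 lay within or below the controls while the other two treated arrays were clearly higher. Ccnb1 and Aurkb had all 3 treated arrays above all controls, and Skp2 showed no such split. Only Ccnb1 and Aurkb were called higher on the percentile scale and 6 on the spike-in scale, with median changes of 1.12 and 1.5. Over all genes 16% and 22.0% were. Aurkb was not above background on any control and passed the filter on dim probes through the treated arrays alone.

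Pre-miR-16 replicate 2 was the treated array farthest from the other two in 27 of the 55 members, or 49.1%, and in 54.1% of all genes. Among controls, replicate 1 held that place, in 25 members or 45.5% and in 42.5% of all genes. For the mesenchymal risers Foxf2, Foxc1, Foxc2, Gata6 and Tbx15, pre-miR-16 replicate 2 was not the treated array nearest the controls. It shared its slide with pre-miR-Control replicates 2 and 3. All 29 called members kept their sign within slide 1 and within slide 2, the 2 slides that held both conditions; slide 3 held pre-miR-16 replicate 3 alone. With slide as a block 7 of the 8 risers and 10 of the 21 fallers stayed called (12.5% and 23.4% of all genes), Foxp1 being the riser lost.

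**Figure D3:**
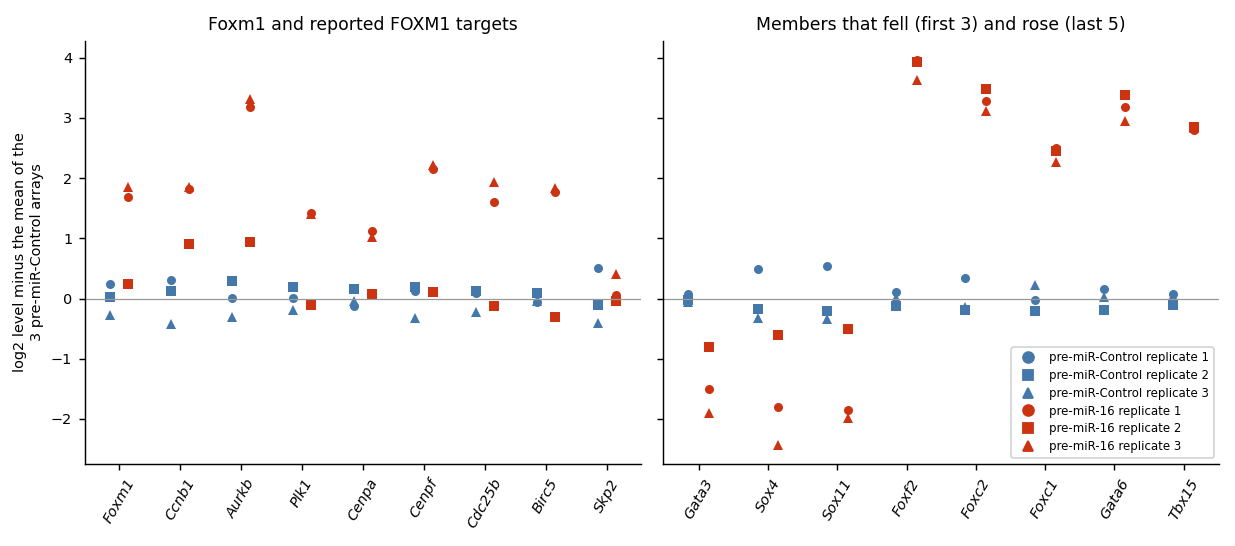
Log2 level of Foxm1 and 8 reported FOXM1 targets (left) and of 8 members (right) on every array, minus the mean of the 3 control arrays; blue is pre-miR-Control, red is pre-miR-16, and marker shape gives the replicate. Pre-miR-16 replicate 2 (red squares) lies near the controls for Foxm1, Birc5 and Plk1 and is the least lowered for Gata3, Sox4 and Sox11, and is level with the other treated arrays for Foxf2, Foxc1, Foxc2, Gata6 and Tbx15.

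None of the 10 tested Sox genes rose and 5 fell (Sox4, Sox11, Sox9, Sox15 and Sox12), where 16% and 33.1% of all genes did. The family median was -0.42. On the spike-in scale only Sox4 fell and the median was -0.04. Sox11, an embryonic neural and mesenchymal factor, read -1.17, -1.90 and -2.04 on controls and -3.56, -2.20 and -3.68 after pre-miR-16 (-1.45 ± 0.44, adjusted p = 0.0367). Replicate 2 once more lay nearest the controls. The call ended with spike-in scaling, slide as a block, and on leaving out each array in turn except pre-miR-16 replicate 2 (up to 0.11). The decline rests on 1 kept probe. The other Sox11 probes, too dim to be kept, changed by 1.16, 1.72, 1.18, 2.15 and 1.43. After normexp correction those changes lay between -0.08 and 0.18. Sox15 fell by 0.51 and Sox12 by 0.34 on the percentile scale; with spike-in scaling Sox15 was at -0.12 and Sox12 at 0.04, neither called. The Sox12 call also ended on leaving out each array in turn except pre-miR-Control replicate 3 (largest adjusted p 0.114). Sox21 (-0.26) and Sox10 (0.17), a neural crest and mammary progenitor factor, were not called.

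Among Klf genes 4 of 11 fell and none rose, where 33.1% and 16% of all genes did, and the median was -0.33. With spike-in scaling 1 fell, 1 rose (Klf9) and the median was 0.05. Klf8, which has been linked to epithelial-mesenchymal transition, read -1.48, -1.67 and -1.95 on controls and -2.96, -2.42 and -2.92 after pre-miR-16 (-1.06 ± 0.19, adjusted p = 0.00586). All treated arrays lay below all controls, and it stayed called with spike-in scaling at -0.68. Klf7 fell by 0.49 on the percentile scale and was not called on the other (-0.10). Klf6, a wound and TGF-beta responsive factor, was bright on all arrays and not called (-0.35).

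For Klf2, the flow- and statin-responsive factor that also keeps lymphocytes and macrophages quiescent, 2 probes gave opposite answers. The tested probe, the brighter one, read 7.31, 7.04 and 6.82 on controls and 6.74, 6.71 and 6.71 after pre-miR-16, a change that was not called (-0.33 ± 0.14, adjusted p = 0.0923). The second probe read -0.27, -0.26 and -0.34 on controls and 1.92, 1.22 and 1.68 after pre-miR-16. All treated arrays exceeded all controls there by more than 1 log2 unit, and with every probe fitted the change was 1.90 (SE 0.18, adjusted p = 5.70e-04). With the mean of both probes the gene read 0.78 and was called. The first 30 of 60 bases of both are shown because the direction of the gene turns on which is read. The brighter probe lies at chr8:70842757-70842816 (mm7, the array's annotation) and is 78.3% G or C; the other lies at chr8:70844133-70844192 and is 43.3% G or C.
Klf2 brighter probe: acacgccgccgctcagccccgacggccccc
Klf2 second probe: tgtatataagactatgaccgattgtatttc

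The brighter Klf2 probe begins in a run made almost wholly of G and C, and the second in a stretch rich in A and T. Of the 20 members with at least 2 kept probes, 13 had all probes moving in 1 direction and 7 did not: Klf2, Gata6, Runx1, Foxp1, Klf9, Foxp4 and Foxk2. The median spread between probes of a gene was 0.34 log2 units.

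**Figure D4:**
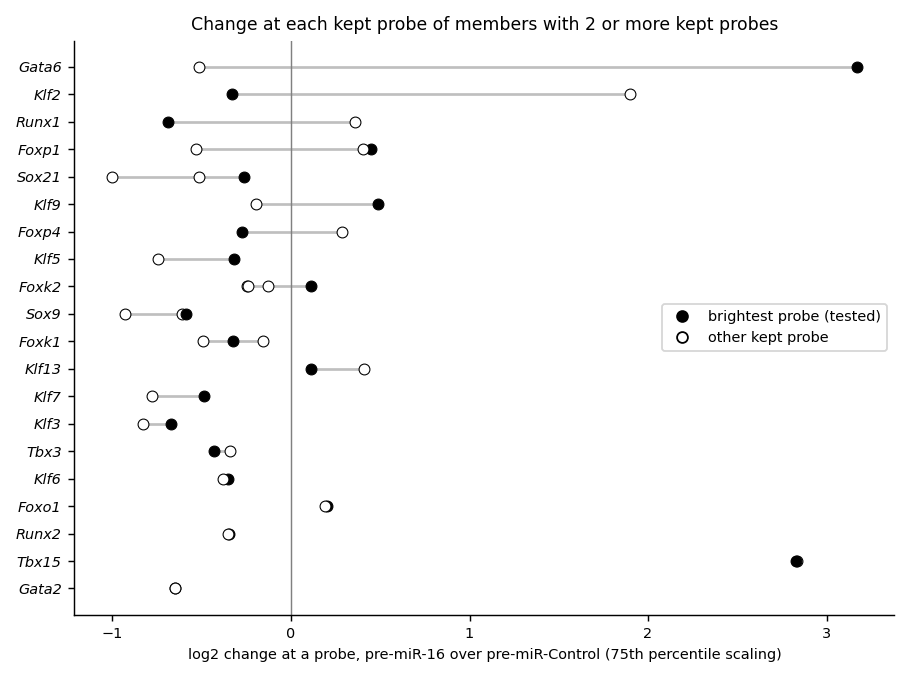
Log2 change at each kept probe of the 20 members with 2 or more, with 75th percentile scaling; the filled circle is the brightest probe, which was tested, open circles are the others and the line spans them. Gata6 and Klf2 have probes 3.69 and 2.23 log2 units apart, and Tbx15, Gata2 and Runx2 have probes that coincide.

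Among the RUNX genes, Runx1, required for blood formation and active in luminal cells, fell at its tested probe. It read 0.33, 0.33 and 0.27 on controls and -0.50, -0.22 and -0.40 after pre-miR-16 (-0.69 ± 0.10, adjusted p = 0.00298). On the spike-in scale it was not called (-0.31). Its other kept probe changed by 0.36, with values of -1.64, -1.78 and -1.77 on controls and -1.18, -1.91 and -1.01 after pre-miR-16, again with replicate 2 at the controls' level, and was not called (adjusted p = 0.251). The starts of both 60-base probes are given so that they can be placed in the gene's transcripts.
Runx1 tested probe: gggcctccttgaaccactccactgccttta
Runx1 second probe: tgtgcatcgtgtcactgtaaatgtaatggt

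The array annotation places the tested Runx1 probe across chr16:92667924-92698376, a span far longer than its 60 bases, and the second at chr16:92658334-92658393 (mm7). The second probe thus lies outside the span of the first, and the pair need not report the same transcripts. Runx3, a factor of T cells and epithelia, was dim and not called (-0.36, adjusted p = 0.0703; 0.03 with spike-in scaling).

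Of 8 tested blood and immune factors, 1 rose, 2 fell and 5 were not called, where 16% of all genes rose and 33.1% fell. Their median was -0.34 (0.04 on the spike-in scale). Klf2, among the 5 by its brighter probe, was 1.90 higher by its second. Gata2, a factor of blood progenitors, mast cells and endothelium, fell from 0.25, 0.23 and 0.25 to -0.43, -0.17 and -0.61 (-0.65 ± 0.13, adjusted p = 0.00776), was not called with spike-in scaling (-0.27), and had 2 probes that agreed. Gata1, the erythroid factor, was not called (-0.57, adjusted p = 0.211). Foxp1, a B cell and macrophage factor also present in epithelia, rose from 0.89, 0.86 and 0.81 to 1.40, 1.13 and 1.37, with no overlap (1.36-fold, 0.45 ± 0.11, adjusted p = 0.0147). Its call was lost when slide entered as a block (adjusted p = 0.068) and when pre-miR-Control replicate 2 or 3 or pre-miR-16 replicate 1 was left out (largest adjusted p 0.0541), and 1 of its 3 kept probes changed by -0.53.

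Foxo1, a FOXO factor that insulin signalling holds out of the nucleus, and its relative Foxo6 were not called on the percentile scale. Foxo1 read 2.04, 1.93 and 2.05 on controls and 2.22, 2.23 and 2.19 after pre-miR-16 (0.20 ± 0.08, adjusted p = 0.0878); every treated array was higher, and it was called on the spike-in scale at 0.59. Foxo6 was not called (-0.87, adjusted p = 0.0759) and was low on pre-miR-16 replicate 2 (1.75, against 2.93 and 2.99). Without that array its change was -0.46 and called (adjusted p = 0.0153). Of 9 reported FOXO targets tested, 1 rose and 2 fell, where 16% and 33.1% of all genes did. The riser was Pdk4, not above background on any control. It passed the filter on dim probes through the treated arrays alone, which favoured a rise. Sesn3 fell by 1.67 and Cited2 by 0.61, and Cited2 was not called on the spike-in scale. Of the remaining forkhead genes, Foxj2 fell by 0.90 and Foxn2 by 0.66 on the percentile scale, neither called on the spike-in scale. Foxj3, Foxk2 and Foxp4 were not called. Foxl2, an ovarian and mesenchymal factor, was above background on all controls and on no treated array. Its change of -0.23 was not called (adjusted p = 0.301), was 0.15 with spike-in scaling, and pre-miR-16 replicate 3 lay above every control.

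Most co-factors of these families were not called. Of 22 tested partners and relatives, 3 rose and 6 fell, where 16% and 33.1% of all genes did. Their median was -0.18 against -0.20 over all genes. On the spike-in scale 5 rose and 1 fell, beside 22.0% and 6.23% of all genes. Tle2, a Groucho co-repressor that FOX and RUNX proteins recruit, fell by 1.34 and stayed called on the spike-in scale (-0.95, adjusted p = 0.0133), whereas Tle3 rose by 0.31. Zfpm2, the FOG co-factor of GATA4 and GATA6, rose by 2.27, with 1 of 3 controls above background. Cbfa2t3 rose by 1.20, also with 1 of 3 controls above background. Both Zfpm2 and Cbfa2t3 passed the filter on dim probes through the treated arrays alone, which favoured a rise. Zfpm1, the co-factor of GATA1, and Cbfb, the obligate partner of RUNX proteins, were not called at 0.22 and -0.33. Klf11, listed on the array as Tieg3, fell by 0.97 and Foxo3a by 0.60, neither called on the spike-in scale.

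Some neighbouring genes of 1 family moved together and others did not. On chromosome 13 (mm7) Foxq1 at chr13:30925543-30925602 fell on the percentile scale and was not called on the spike-in scale (-0.19), while Foxf2, 71.2 kb away at chr13:30996817-30996876, and Foxc1, a further 178.1 kb away at chr13:31174935-31174994, rose on both. On chromosome 5, Tbx3 and Tbx5 lie 199.6 kb apart and Tbx5 rose whereas Tbx3 fell slightly (-0.05 and not called with spike-in scaling). Foxc2 rose, and Foxl1, 9.8 kb away, was not above background on any array, so its change could not be tested. Positions are those of the probes, and whether a probe lies in coding sequence or a UTR was not analysed here.

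The promoter windows of Foxf2 and Gata3, which moved in opposite directions, were both rich in G and C. The RefSeq promoter table matched 64 of the 94 members, whose windows had a median of 62.4% G or C against 52.0% over all genes, and 46.9% of the members were rich in both GC and CG pairs against 25.5% of all genes (at least 55% G or C and a CG ratio, observed over expected, of at least 0.65). The 250 bases before the start of Foxf2, a riser, and Gata3, a faller on both scales, are shown 5′ to 3′ on the gene's strand with CG pairs in capitals. The Foxf2 window is chr13:31625566-31625815 (GRCm38.p6, plus strand), 71.6% G or C with 21 CG pairs. The Gata3 window is chr2:9878601-9878850 (minus strand), 70.0% G or C with 19. Its CG ratio of 0.633 lay under 0.65, so Gata3 was not counted as rich in both. The Foxf2 ratio was 0.724.
Foxf2: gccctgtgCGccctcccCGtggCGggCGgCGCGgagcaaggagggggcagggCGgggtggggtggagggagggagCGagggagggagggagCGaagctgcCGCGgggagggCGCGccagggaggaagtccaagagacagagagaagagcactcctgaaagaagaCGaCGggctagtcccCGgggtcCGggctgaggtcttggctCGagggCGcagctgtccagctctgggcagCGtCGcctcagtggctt
Gata3: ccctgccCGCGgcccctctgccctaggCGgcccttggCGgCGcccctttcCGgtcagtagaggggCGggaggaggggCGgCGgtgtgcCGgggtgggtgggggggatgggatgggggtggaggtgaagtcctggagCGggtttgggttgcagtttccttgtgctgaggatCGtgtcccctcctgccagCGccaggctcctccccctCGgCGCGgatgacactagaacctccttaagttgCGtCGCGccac

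Neither window held, on either strand, any of 6 core motifs searched by their letters: AACAAT for SOX, TGTTTAC for FOX, AGATAA for GATA, GGGTGTGG for KLF, AGGTGTGA for TBX and TGTGGTTT for RUNX. Over all windows in the table these letters stood in 10.7%, 3.65%, 11.2%, 3.56%, 1.28% and 1.78%, and over the members' 81 windows in 6.17%, 3.70%, 6.17%, 6.17%, 0.00% and 1.23%. A missing match says only that these letters do not occur in this window.

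By family, the spread of changes was wide in Fox, Gata and Tbx and narrow in Klf and Runx. Fox had 5 risers and 6 fallers of 21, Gata 1 and 2 of 4, Tbx 2 and 2 of 6, and Runx 0 and 2 of 3. Over all genes 16% rose and 33.1% fell. Family medians ran from -0.61 (Gata) to -0.21 (Tbx) on the percentile scale and from -0.23 (Gata) to 0.17 (Tbx) with spike-in scaling, and they shifted with the scale by the same 0.38 as all genes. At the upper end, 7 members were called with a change of at least 2 log2 units, which 6.88% of all genes reached. After normexp the highest of the 8 that rose was 1.73. Of those 8, 3 were above background on no control array and Foxc2 on 2 of 3. All of these passed the filter on dim probes through the treated arrays alone, which favoured a rise. At its bound the Tbx5 change was 1.09. At the lower end 5 were called with -1 or less, which 6.84% of all genes reached. Foxj1, among them, passed the filter through the control arrays alone.

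**Figure D5:**
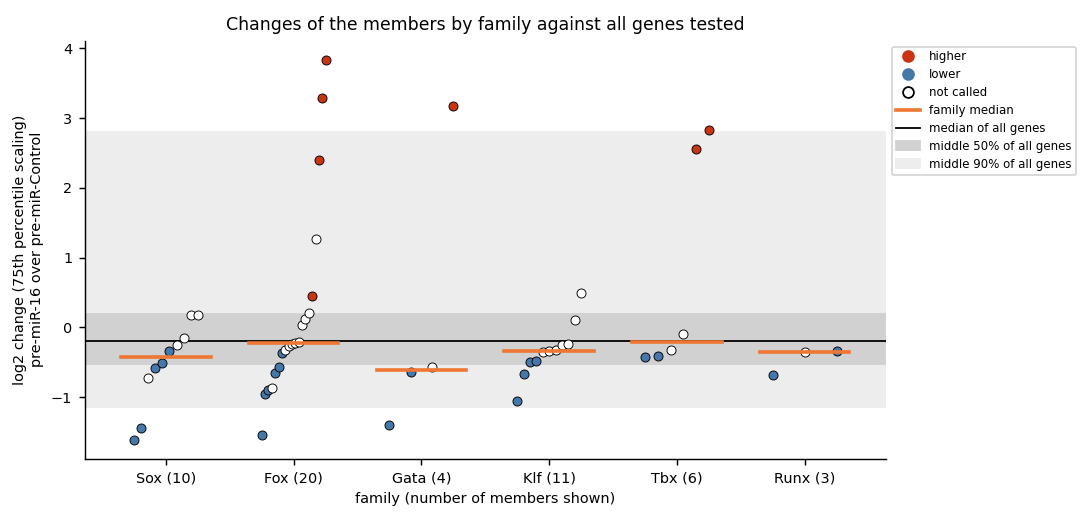
Log2 change of 54 of the 55 tested members by family with 75th percentile scaling (red rose, blue fell, open not called), the family median (orange bar), and the median, middle 50% and middle 90% of all 16702 genes (black line and grey bands). Members above the upper grey band are Foxf2, Foxc2, Gata6 and Tbx15, and family medians lie within the middle band except for Gata.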

How the data were processed

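RNA of 3 pre-miR-Control and 3 pre-miR-16 cultures was labelled with Cy3 and hybridised to single-colour Agilent arrays. Per the file headers, the deposited intensity values are background-subtracted, detrended signals from Agilent Feature Extraction 9.5.3.1, with flags for background, saturation and outliers (0 saturated spots, 74 to 113 outlier spots an array, which were left out), and are not normalized between arrays. The deposited series matrix holds log2 values whose normalization the labels and headers do not give; its column for pre-miR-16 replicate 1 matched the scanner data of replicate 2 better than its own, and the reverse (rank correlation 0.965 and 0.97, against 0.946 and 0.944), so the matrix served only as an alternative.

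From the intensity, log2 minus each array's 75th percentile (625.85 to 910.52 units) was taken, probes not well above background on all 3 arrays of a group were dropped, and the brightest kept probe stood for a gene: 16702 genes, named by RefSeq accession, current symbol or, failing those, the name in the file. limma 3.58.1 in R 4.3.3 tested pre-miR-16 against control, with Benjamini-Hochberg adjustment over all genes. On simulated data 59% of 2-fold and 88% of 4-fold changes were recovered. There 100 of 16702 genes were changed by each size and the noise was independent between genes. In the measured data 49.1% of genes were called, so these rates need not hold for them. Spike-in scaling centred arrays on 256 bright spike-in spots. A bound ("at least") sets a group not above background at the lowest signal well above it. A summed level is the log2 of the summed linear signals.

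Named members were, for Gata and Runx, all that were detected and, for the other families, the 6 with the smallest p in each direction and the 3 brightest, plus those with a bound, with disagreeing probes, or with the largest change among calls lost on the spike-in scale. Foxm1, Klf5, Sox10 and Tbx18 were named after their values were seen. The values of 1 tested member are not reported here, though counts and medians include it. Members and lists were chosen with earlier results of these data known. Alternatives covered scaling, background, filters, probes, slide, replicate number, variance model and each array left out.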

Additional observations from a re-analysis of the deposited data

How the results depend on the processing

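The count of 8 members higher was 5 where probes had to be above background on all arrays, and between 7 and 11 under every other setting run, 7 to 10 with single arrays left out. The count of 21 lower was 4 with spike-in scaling, 12 with no filter on dim probes, 12 with slide as a block, 13 with the replicate block, 10 at an adjusted p under 0.01, 5 with at least 2-fold change, and 13 to 21 with single arrays left out; the cause was not tested. The median change of -0.33 turned to 0.0537 with spike-in scaling, as did Sox12 (0.0445), Foxa1 (0.0075) and Runx2 (0.0362), by the constant shift of that scale, and Klf2 turned to 0.78 with the mean of its probes. Of 42 named members, 12 lost their call with slide as a block, 17 with spike-in scaling (the 3 that turned sign included), 9 with no filter and 8 with the replicate block. Both replicate 1 arrays lay on slide 1 and both replicate 2 arrays on slide 2; same-numbered arrays deviated with correlations of -0.088, -0.026 and -0.003, and 0 of 3 control arrays correlated best with its own number. Dim probes limit the sizes of Foxf2, Foxc1, Foxc2, Gata6, Tbx15, Tbx5 and Foxj1: normexp cut Gata6 from 3.17 to 1.72, Tbx15 from 2.83 to 1.73 and Foxj1 from -1.55 to -0.52, each still called, and Tbx5 lost its call.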
